A study of Mus musculus with 64 samples.

Results

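The genes described here are 10 transcriptional readouts and feedback inhibitors of the Ras-ERK pathway: the phosphatase genes Dusp4, Dusp5 and Dusp6, the Sprouty genes Spry1, Spry2 and Spry4, the Spred genes Spred1 and Spred2, and the transcription factor genes Etv5 and Egr1. They were taken by name, through their Ensembl mouse identifiers, from a table of normalised counts, and all 10 were found among its 26286 genes. RNA-seq libraries were made from whole bone marrow (BM), whole spleen (SP), sorted megakaryocyte-erythroid progenitors (MEP) and sorted stem and myeloid progenitors (SMP, sorted as Kit+ CD34+ cells low in CD16/32 and without lineage markers or Sca) of both tissues, 64 libraries from 18 mice. The scat mice carry a mutant Rasa3 on a BALB background (CbyJ.Cby-Rasa3(scat)/Llp, scat/scat; WT mice are +/+ of the same stock), and Rasa3 encodes a GTPase-activating protein acting on Ras and Rap1. In the question asked of these genes, higher levels in scat than in wild type (WT) would be a rise of ERK output.

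The compared groups were scat homozygotes in anemic crisis (18 libraries of 3 mice, 23 to 28 days old) against young WT mice (18 libraries of 7 mice, 23 to 28 days old), and scat homozygotes in partial remission (17 libraries of 5 mice, 32 to 58 days old) against crisis mice and against older WT mice (10 libraries of 3 mice, 32 to 58 days old). Partial remission was assigned by the study from red cell measures lying between those of WT and crisis. The mutation is carried by every cell of a scat mouse, so no cell type is singled out by the genetics. The same 3 crisis mice gave the crisis libraries of all 6 populations, so the populations are not independent of one another. Crisis values are given below in the order replicate 1, 2 and 3, which are mice of 23, 28 and 26 days in every population.

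Growth factor receptors load Ras with GTP, and Ras then activates the kinases Raf, MEK and ERK in turn. Active ERK switches on immediate early genes such as Egr1, ETS factors such as Etv5, and its own brakes. Dual-specificity phosphatases remove the activating phosphates from ERK, Sprouty proteins dampen receptor signalling above Raf, and Spred proteins bring the Ras GTPase-activating protein neurofibromin to the membrane. In blood formation the cascade is used by the receptors for stem cell factor, erythropoietin and thrombopoietin.

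On GRCm38 (GENCODE M21) Dusp4 lies at chr8:34807297-34819894 and Dusp5 at chr19:53529109-53542431, both on the plus strand. Dusp6 lies at chr10:99263231-99267489, Spry1 at chr3:37639947-37644598, Spred1 at chr2:117121374-117182279 and Spred2 at chr11:19924375-20024026, all on the plus strand, with Spry2 at chr14:105891947-105896819 and Etv5 at chr16:22381309-22439719 on the minus strand. Promoters of Dusp4, Spry4 and Egr1 were not searched for motifs, so nothing is said of sites in them. Promoter windows of RefSeq (GRCm38.p6, 250 bases before to 50 after the start of transcription) were taken for the other 7 of the 10 genes. Those of the genes with the largest changes in crisis are shown 5′ to 3′, with CArG boxes, the sites named for serum response factor, in capitals:
Dusp5 promoter, chr19:53528895-53529194, plus strand: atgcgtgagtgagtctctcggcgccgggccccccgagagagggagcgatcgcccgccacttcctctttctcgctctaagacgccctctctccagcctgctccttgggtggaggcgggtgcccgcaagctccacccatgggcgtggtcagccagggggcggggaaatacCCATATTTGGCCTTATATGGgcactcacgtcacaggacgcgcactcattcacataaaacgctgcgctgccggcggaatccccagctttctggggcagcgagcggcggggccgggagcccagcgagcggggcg
Dusp6 promoter, chr10:99262981-99263280, plus strand: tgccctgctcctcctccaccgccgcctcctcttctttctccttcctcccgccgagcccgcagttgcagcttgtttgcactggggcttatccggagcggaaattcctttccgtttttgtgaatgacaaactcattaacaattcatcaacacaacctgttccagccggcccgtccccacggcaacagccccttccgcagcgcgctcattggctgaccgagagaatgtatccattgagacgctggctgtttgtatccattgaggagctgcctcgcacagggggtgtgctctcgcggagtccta
Spry1 promoter, chr3:37639697-37639996, plus strand: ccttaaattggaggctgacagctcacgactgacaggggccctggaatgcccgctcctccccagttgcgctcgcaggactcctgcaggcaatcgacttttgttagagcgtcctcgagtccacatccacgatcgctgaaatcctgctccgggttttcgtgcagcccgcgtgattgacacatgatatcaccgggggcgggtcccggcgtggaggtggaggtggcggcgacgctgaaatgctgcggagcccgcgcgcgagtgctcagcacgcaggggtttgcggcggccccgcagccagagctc
The Dusp5 window holds 2 CArG boxes side by side, at -82 to -73 and at -72 to -63 from the start site. A CArG box is present in 1.63% of 32851 promoter windows of the same length. The windows of Dusp6, Spry1, Spred1, Spred2 and Etv5 (2 start sites) hold no match to any of the 6 motifs searched on both strands, which were the CArG box, CCGGAA for ETS factors, TGACGTCA for the cyclic AMP response element, TGANTCA for AP-1, GCGNGGGCG for EGR factors and AGATAA for GATA factors. These letters are present in 14.9%, 1.79%, 7.81%, 5.55% and 11.2% of all windows in the same order. Spry2 holds 1 CCGGAA. No motif listed overlaps another in these windows. These are matches of letters and carry no measurement of binding.

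Deposited totals ran from 33600609 to 107616173 normalised counts per library, and mitochondrial transcripts made up 1.81 to 6.84%. The values printed for single libraries were put on 1 scale for all 64 libraries by their median ratio to the geometric mean, while each test used scaling over its own libraries. The whole spleen library of mouse 27265, labelled scat in remission there and WT elsewhere, was put in no group. The whole spleen library of remission replicate 1 (mouse 2726) had values of a WT kind. In young WT bone marrow all 10 erythroid markers were called higher in MEP than in SMP (median log2 difference 4.19) and all 10 stem and early progenitor markers lower (median -3.50). Of 8 megakaryocyte markers 1 was called higher and 7 lower in these MEP (median -3.22). Relative to SMP, the young WT bone marrow MEP thus had more erythroid and mostly less megakaryocyte transcript. Rasa3 itself is still transcribed in scat, so its level does not check the genotype. Its levels in whole spleen, in normalised counts, were 2104, 3254 and 3305 in crisis against 13193, 12589.7 and 13253 in young WT, a log2 change of -2.19 ± 0.18 (SE; limma, Benjamini-Hochberg adjusted p = 4.27e-05). It was also called lower in spleen SMP (-0.95 ± 0.23), and not in whole bone marrow (-0.08 ± 0.11), spleen MEP (0.04 ± 0.21), bone marrow MEP (-0.47 ± 0.22) or bone marrow SMP (-0.38 ± 0.11).

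In young WT mice, SMP held more transcript of nearly every one of these genes than MEP did. By limma 9 of the 10 genes were called lower in spleen MEP than in SMP and 8 of the 10 in bone marrow, where called means a Benjamini-Hochberg adjusted p under 0.05 over all genes tested. The bone marrow fit had the mouse as a random block. The spleen MEP and spleen SMP of young WT came from different mice, so that fit had no block, and mouse and cell type cannot be told apart in it. Most genes differ between these cell types: 74.1% of all genes were called in bone marrow and 66.2% in spleen, 36.8% and 33.7% as lower. The median log2 difference of the 10 genes was -1.18 in bone marrow and -1.84 in spleen, against -0.02 and -0.06 for all genes tested. Without rescaling the median of all genes was -0.27 in bone marrow and -0.98 in spleen, where 766 genes were then called higher and 8376 lower.

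The nuclear ERK phosphatase gene Dusp5 differed most. It stood at 29.5, 30.6 and 134 in spleen MEP against 1187, 1468 and 919 in spleen SMP, and at 159, 134 and 365 against 982, 989 and 978 in bone marrow. Each MEP library lay below each SMP library, with log2 differences of -4.43 ± 0.57 (adjusted p = 0.000396) in spleen and -2.20 ± 0.33 (limma adjusted p = 0.000847) in bone marrow. Dusp4, a nuclear phosphatase that also acts on other MAP kinases, had log2 differences of -3.75 ± 0.54 and -1.93 ± 0.35, and Dusp6, a cytoplasmic phosphatase selective for ERK, of -3.11 ± 0.51 and -2.04 ± 0.47 in spleen and bone marrow MEP. Young WT replicate 3 had the highest Dusp4, Dusp5 and Dusp6 of the young WT MEP libraries in each tissue. It also had the highest B cell marker sums, with 146, 781 and 7105 in spleen MEP and 2793, 4404 and 19332 in bone marrow MEP in replicate order, and the highest stem and early progenitor sums (2191, 2298 and 6102 in spleen MEP, 9564, 3684 and 12556 in bone marrow MEP). Their part in those phosphatase levels was not tested.

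The inhibitors of receptor and Ras signalling differed less. Spry1, which encodes an inhibitor of receptor tyrosine kinase signalling, was lower in MEP, with -1.79 ± 0.35 on the log2 scale in spleen (adjusted p = 0.00258) and -1.77 ± 0.35 in bone marrow (limma adjusted p = 0.00213). In spleen and bone marrow the differences of Spry2 were -0.68 ± 0.18 and -0.51 ± 0.13, those of Spred1 -0.64 ± 0.15 and -0.62 ± 0.06, and those of Spred2 -0.72 ± 0.16 and -0.26 ± 0.10, where the Spred2 libraries of the 2 bone marrow cell types lay close (adjusted p = 0.0448). That last call is lost without any 1 library other than MEP replicate 2 (-0.36 to -0.18 over the 6 fits), and the Spry2 call in spleen without MEP replicate 2 (-0.80 to -0.60). Etv5, an ETS factor induced by ERK, was lower in both, at -1.90 ± 0.22 and -1.49 ± 0.12. Egr1, an immediate early zinc finger factor, was called lower in spleen MEP (-2.52 ± 0.76, adjusted p = 0.0262), a call lost without SMP replicate 2 or 3 (-2.95 to -1.74 over the 6 fits), and had a log2 difference of -0.87 ± 0.34 in bone marrow (adjusted p = 0.0517). Spry4, a further Sprouty gene and the lowest of the 10 per kilobase in SMP of both tissues, had differences of -1.11 ± 0.56 and -0.57 ± 0.28 that did not pass the test.

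**Figure D1:**
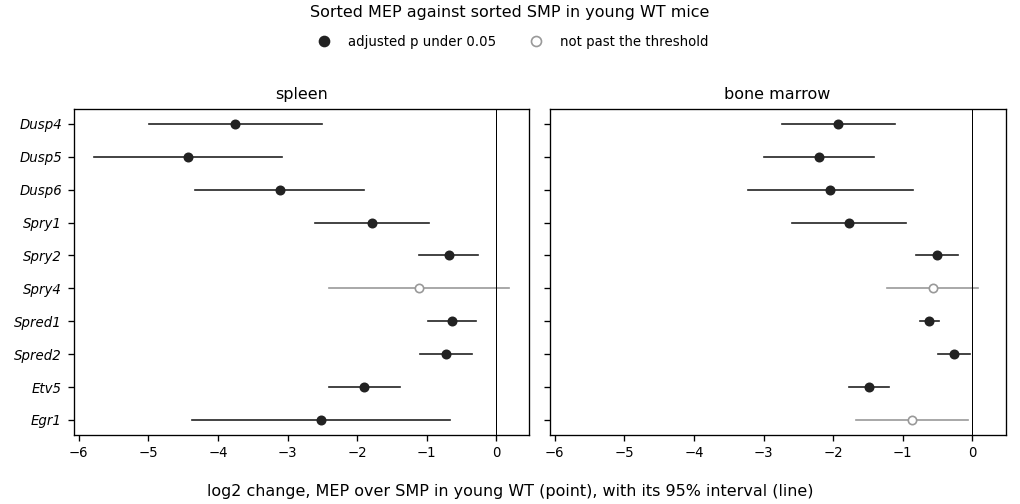
Log2 change of MEP over SMP in young WT mice for the 10 genes (points) with 95% intervals (lines), in spleen on the left and bone marrow on the right; filled points have an adjusted p under 0.05. All 20 points lie below 0, and Dusp5 in spleen lies lowest at -4.43.

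Per kilobase of exon, Egr1 and Dusp6 were the most abundant of the 10 in young WT whole spleen, at 896 for Dusp6 and 573 for Egr1, and Spry4 (20.6) and Spry1 (32.8) the least. By population, the highest mean of Dusp4, Dusp5, Spry1, Spry2, Spred1, Spred2 and Etv5 was in spleen SMP, but of these the libraries of spleen SMP were separate from those of the next population for Dusp4 and Spred2 and overlapped them for Dusp5, Spry1, Spry2, Spred1 and Etv5. Dusp6, Spry4 and Egr1 had their highest mean in whole spleen, and overlapped the next population each time. Between whole tissues, 3 of the 10 genes differed in young WT, in a comparison where 27.7% of all genes did. Dusp4 had 279, 324 and 299.8 in whole spleen against 40.1, 53.5 and 41.3 in whole bone marrow, a log2 difference of 2.69 ± 0.27 (limma adjusted p = 6.19e-05). Egr1 was higher in spleen by 1.39 ± 0.14 (adjusted p = 7.89e-05) and Spry2 lower, at -0.72 ± 0.18 (adjusted p = 0.0135). Between spleen and bone marrow SMP, Spred2 alone was called, at 0.37 ± 0.09 (limma adjusted p = 0.0419, with 5.69% of all genes called). That call is lost without spleen replicate 2 or any 1 bone marrow library (0.32 to 0.43 over the 6 fits). The SMP of the 2 tissues came from different young WT mice, so mouse and tissue cannot be told apart in it. Between spleen and bone marrow MEP none of the 10 was called by limma (0.00713% of all genes were), with 2 of the 10 at an unadjusted p under 0.05, against 20.6% of all genes.

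Whole spleen had the most calls among these genes in crisis, and they went in opposite directions. Of the 10 genes, 7 changed: Dusp4, Dusp5, Dusp6 and Etv5 fell, and Spry1, Spred1 and Spred2 rose. In this tissue 46.3% of all genes were called, 24% as lower and 22.3% as higher, and the 7 of 10 genes are read against that share. Without rescaling 1371 genes were called higher and 2866 lower, against 3596 and 3868 with it, and the median of all genes shifted by -0.11. The median log2 change of the 10 genes was -1.14, against -0.05 for all 16127 genes tested. The groups did not overlap for 8 of the 10 genes (2 higher, 6 lower), nor for 57.7% of all genes. In libraries of whole tissue, fewer cells of a type and less RNA per cell cannot be told apart.

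The 3 phosphatase genes fell together. Dusp5 had 206, 194 and 142 in crisis against 819, 1073 and 892 in young WT, Dusp6 had 822, 780.5 and 836 against 2365, 3053 and 3005, and Dusp4 had 30.7, 64.3 and 107 against 279, 324 and 299.8. Each crisis library lay below each young WT library for all 3. The log2 changes were -2.35 ± 0.23 for Dusp5 (a 5.11-fold fall; adjusted p = 9.62e-05), -1.77 ± 0.15 for Dusp6 (adjusted p = 4.06e-05) and -2.30 ± 0.45 for Dusp4 (adjusted p = 0.00291; limma, SE, n = 3 each). Crisis Dusp6 was nearly the same in the 3 mice, while crisis Dusp4 was lowest in replicate 1 and highest in replicate 3.

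Among the inhibitors above Raf, Spry1 had 138, 682 and 764 in crisis against 80.9, 107 and 98.7 in young WT, a log2 change of 2.13 ± 0.59 (adjusted p = 0.0173). All crisis libraries were above young WT, but replicate 1 only slightly, and replicates 2 and 3 by far. Spred2 had 1495, 2525 and 2385 against 1158, 1143 and 826 (1.02 ± 0.24, adjusted p = 0.00749), with no overlap. Spred1 had 1676, 3837 and 3316 against 1304, 1869 and 1462 (0.87 ± 0.29, adjusted p = 0.0382), and crisis replicate 1 lay within the young WT range. The Spred1 call is lost without any 1 library other than crisis replicate 1 (0.64 to 1.26 over the 6 fits), and the Spry1 call without crisis replicate 2 or 3 or young WT replicate 1 or 3 (1.70 to 2.95). Without crisis replicate 1 they were 1.26 ± 0.18 and 2.95 ± 0.28, both called. Spry2 had 222, 242 and 141 against 292, 258 and 342 and Spry4 26.6, 44.0 and 49.0 against 54.9, 116 and 124. Both had lower values in every crisis library and did not pass the test (adjusted p = 0.132 and 0.0588).

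Of the transcription factors, Etv5 fell, with 337, 781 and 638 in crisis against 823, 1516 and 1202 in young WT (-1.04 ± 0.33, adjusted p = 0.0301), a call lost without young WT replicate 2 or 3 (-1.29 to -0.66 over the 6 fits). Egr1 had 258, 3679 and 772 in crisis against 2531, 2541 and 2639.6 in young WT. Here crisis replicate 2 was above and the other 2 far below a narrow young WT range, and the log2 change of -1.50 ± 0.84 did not pass the test (adjusted p = 0.183).

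Cell type markers of the whole spleen also changed in crisis. All 8 B cell markers were called lower in crisis (median log2 change -3.65), with summed levels of 15222, 11350.4 and 6742 in crisis against 110504, 126677 and 130191 in young WT. All 9 T and NK cell markers were called lower (median -3.14; sums of 3185, 5588 and 5329.8 against 33714, 26727 and 40174). All 10 erythroid markers were called higher (median 1.32; sums of 2946475, 3242211 and 2413264 against 1226999.8, 986042 and 880800.2). No marker of these lists was at 0 in all libraries of a group. Their part in the changes of the 10 genes was not tested.

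**Figure D2:**
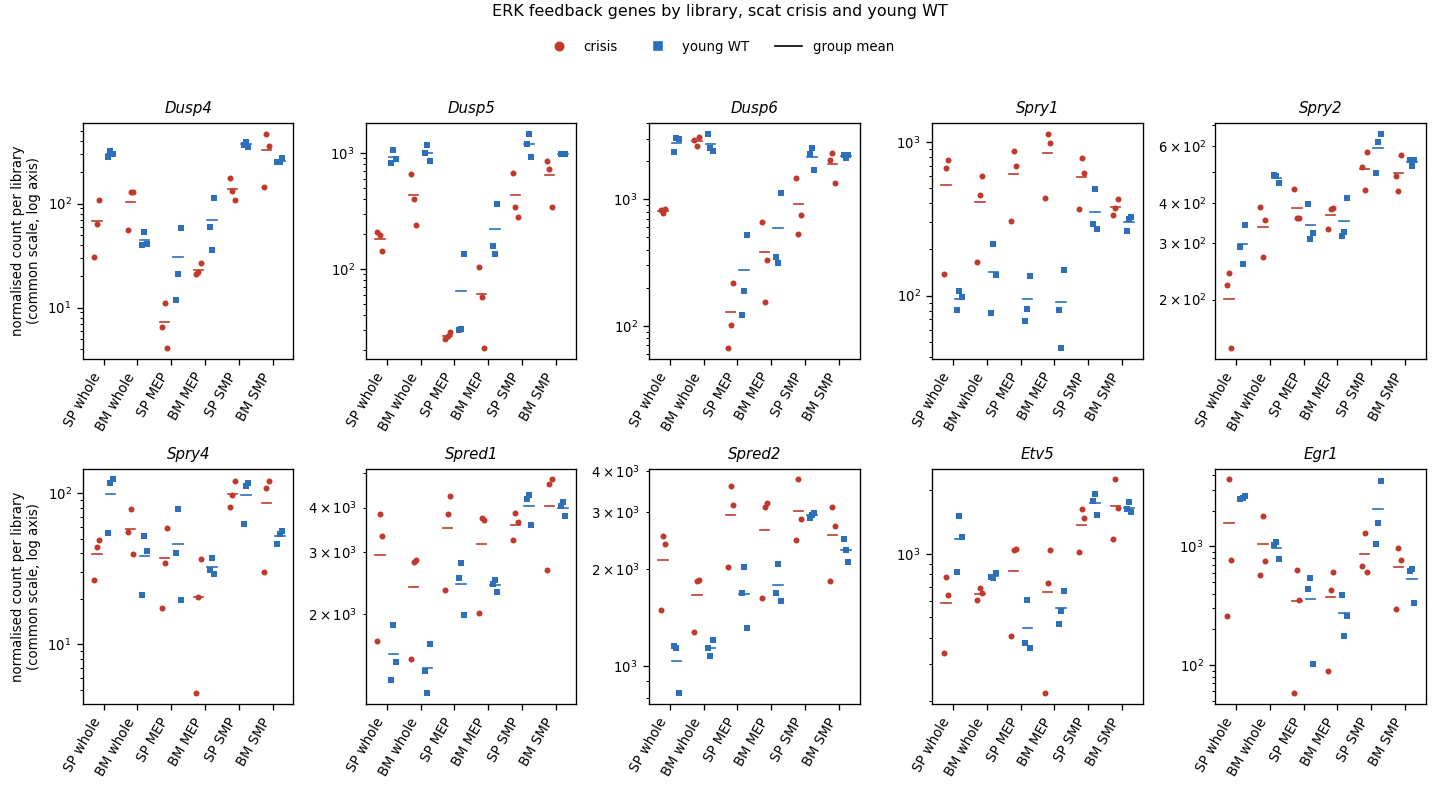
Normalised counts of the 10 genes in each crisis and young WT library (points; log axis; lines are group means) over the 6 populations, crisis left of young WT. Dusp5 in whole spleen sits at 206, 194 and 142 in crisis, below all young WT libraries, and Spry1 in spleen MEP at 305, 870.3 and 700.0, above all of them.

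In whole bone marrow of the same mice 0 of the 10 genes were called by limma, with 8.85% of all genes called (4.66% higher and 4.19% lower). At an unadjusted p under 0.05 there were 6 of the 10, against 26.5% of all genes. The groups did not overlap for 5 of the 10 (2 higher, 3 lower), nor for 32.7% of all genes. Dusp5 had 659, 401 and 238 in crisis against 1001, 1182 and 849.8 in young WT, lower in every crisis library (-1.36 ± 0.35, adjusted p = 0.0519). Dusp4 had the opposite order, with 55.2, 128 and 130.0 against 40.1, 53.5 and 41.3 (1.08 ± 0.41, adjusted p = 0.137). Dusp6 had 2928, 2651 and 3128 against 3307, 2545 and 2426, overlapping groups with a 95% interval of -0.30 to 0.41 for the log2 change.

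Spry1 had 165, 453 and 606 against 76.7, 217 and 136 (1.41 ± 0.53, adjusted p = 0.136), where crisis replicate 1 lay inside the young WT range. Spred1 had 1498, 2817 and 2842 against 1383, 1196 and 1648 and Spred2 1279, 1839.6 and 1854 against 1142, 1079 and 1204. For both, replicates 2 and 3 were above young WT and replicate 1 was within or just above its range. The adjusted p was 0.117 for Spred1 and 0.0917 for Spred2. Spry2 (-0.54 ± 0.20) and Etv5 (-0.31 ± 0.14) had lower values in every crisis library without passing the test, and Spry4 (0.58 ± 0.47) and Egr1 (-0.09 ± 0.38) overlapped. B cell marker sums were 50253, 5915 and 6946 in crisis against 102977, 111319 and 88608 in young WT, with replicate 1 again nearest to young WT. The 8 B cell markers had a median log2 change of -3.19 and 1 of them was called, while 8 of 10 erythroid markers were called higher.

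The difference between the tissues was tested with the mouse as a random block, as the crisis effect in whole spleen minus that in whole bone marrow. Dusp4 (-3.42 ± 0.52, adjusted p = 0.00053), Dusp6 (-1.84 ± 0.20, adjusted p = 4.61e-05) and Spry4 (-1.83 ± 0.58, adjusted p = 0.0342) changed more negatively in spleen, 3 of the 10 genes against 26% of all genes called by limma in either direction. Without rescaling none of the 3 was called. The Spry4 call is lost in 8 of the 12 fits without 1 library, in which its difference ran from -2.13 to -1.55; the 8 left out crisis replicate 1 or 2 of either tissue, young WT replicate 2 or 3 of spleen, or young WT replicate 1 or 3 of bone marrow. Dusp5 did not pass (-1.02 ± 0.36, adjusted p = 0.0558), nor did Spry1 (0.68 ± 0.71, 95% interval -0.85 to 2.22), Spred1 (0.11 ± 0.35) or Spred2 (0.45 ± 0.25).

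In the sorted MEP, Spry1 was the only one of these genes called in crisis, and only in spleen; MEP were not shown to differ between the tissues. In spleen MEP it had 305, 870.3 and 700.0 in crisis against 68.0, 82.4 and 133 in young WT, a 6.2-fold rise (log2 2.63 ± 0.42, adjusted p = 0.0368). That is 1 of the 10, in a comparison with 1.17% of all genes called (0.576% higher). In bone marrow MEP it had 429.6, 1135 and 989 against 80.1, 45.7 and 146, a log2 change of 3.26 ± 0.51 that did not pass (adjusted p = 0.0732; 0.197% of all genes called). The groups did not overlap for 3 of the 10 genes in either MEP (1 higher, 2 lower), nor for 28.5% of all genes in spleen and 19.4% in bone marrow. In both tissues all 3 crisis libraries of Spry1 lay above all young WT libraries. The call in spleen MEP is lost without crisis replicate 2 or 3 or young WT replicate 1 or 2 (2.34 to 3.09 over the 6 fits). It is also lost without the trend and robust settings and with all 4 groups in the fit. A covariate for libraries with a single scaling step among their low values removes it too. In spleen MEP 2 of 3 young WT and 0 of 3 crisis libraries were of that kind. Without crisis replicate 1 Spry1 was called in spleen (3.09 ± 0.33, limma adjusted p = 0.00864) and bone marrow MEP (3.70 ± 0.46, adjusted p = 0.00574).

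The other genes in MEP did not pass the test, with 0 of 10 called in bone marrow, where 3 of 10 were at an unadjusted p under 0.05 against 14.4% of all genes. Dusp5 had 105, 57.0 and 20.8 in crisis against 159, 134 and 365 in young WT in bone marrow MEP and 25.0, 26.1 and 28.4 against 29.5, 30.6 and 134 in spleen MEP. Dusp4 had 20.9, 21.8 and 26.7 against 60.2, 35.6 and 113 and, in spleen, 6.43, 11.1 and 4.09 against 11.9, 21.2 and 58.6. For both genes every crisis library was below every young WT library in both tissues, and the young WT libraries spread widely. Dusp4 in spleen MEP was near the floor, with means of 7.19 in crisis and 30.6 in young WT. It passed the filter at a mean of 10 only through young WT, so its separation there carries little weight. In bone marrow MEP the library with the highest Dusp5 within each group was also the one with the highest B cell marker sum (15113, 191 and 173 in crisis and 2793, 4404 and 19332 in young WT). Dusp4 was highest in that library in young WT (113) but lowest in it in crisis (20.9). Stem and early progenitor sums were 1336, 1436 and 1339 in crisis against 2191, 2298 and 6102 in young WT in spleen MEP and 2672, 2917 and 2956 against 9564, 3684 and 12556 in bone marrow MEP, lower in every crisis library. The part of these cells in the phosphatase values was not tested.

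Crisis replicate 1 had the lowest Spred1 and Spred2 of the crisis mice in MEP, as in whole tissue. In spleen MEP Spred2 had 2022, 3608 and 3153 in crisis against 1687, 2033 and 1313 in young WT (0.78 ± 0.24, adjusted p = 0.116). Spred1 had 2340.2, 3845 and 4319.7 against 2535, 2794 and 1988 (0.48 ± 0.23, adjusted p = 0.26), and Etv5 406, 1039 and 1053 against 377, 605 and 358 (0.81 ± 0.38, adjusted p = 0.255). In each, crisis replicate 1 lay within the young WT range and replicates 2 and 3 above it. Spry2 did not pass the test, with 95% intervals of -0.28 to 0.63 in spleen and -0.39 to 0.55 in bone marrow MEP. Egr1 and Spry4 did not pass either and spread more widely, with 95% intervals of -2.38 to 1.75 and -1.73 to 1.21 in spleen MEP.

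In SMP, the phosphatase genes fell in spleen in crisis. Dusp5 had 678, 343 and 279 in crisis against 1187, 1468 and 919 in young WT (-1.44 ± 0.34, adjusted p = 0.0284). Dusp4 had 175, 131 and 108 against 365, 395 and 353 (-1.35 ± 0.31, adjusted p = 0.0277) and Dusp6 1489.6, 537 and 751 against 2287, 2533 and 1695 (-1.25 ± 0.34, adjusted p = 0.0335; limma). The groups did not overlap for these 3 of the 10 genes, nor for 50.1% of all genes. These were the 3 of 10 genes called, all lower, where 23.6% of all genes were called and 11.3% as lower. None of the 3 was called without crisis replicate 3 or without any 1 of the young WT replicates, fits in which 0 or 1 gene of the genome was called, and Dusp6 was also lost without crisis replicate 2. In the 6 fits without 1 library the log2 changes were -1.80 to -1.16 for Dusp5, -1.51 to -1.17 for Dusp4 and -1.63 to -0.93 for Dusp6. Without rescaling the median of all genes shifted by -0.55 and 154 genes were called higher and 2167 lower, against 1899 higher and 1736 lower with it.

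Spry1 in spleen SMP had 369, 786 and 630.2 in crisis against 291, 493 and 272 in young WT (0.84 ± 0.37, adjusted p = 0.117), overlapping groups. Egr1 had 682, 1298 and 609 against 1041, 1566 and 3559.6 (-1.04 ± 0.45, adjusted p = 0.112). The log2 changes of Spry2 (-0.11 ± 0.24), Spry4 (0.17 ± 0.41), Spred1 (-0.08 ± 0.17), Spred2 (0.12 ± 0.20) and Etv5 (-0.27 ± 0.23) were all smaller, and the groups overlapped. Cell type markers of the sorted SMP changed here too. Erythroid markers were called higher in 9 of 10 (median log2 change 1.77; sums of 102939.5, 244932 and 165079.8 in crisis against 43202, 39511 and 39053 in young WT), and stem and early progenitor markers lower in 9 of 10 (median -1.58; sums of 49739, 14459.9 and 30275 against 97877, 94959.6 and 73237). Among the crisis libraries, replicate 1 had the highest stem sum, the lowest erythroid sum and the highest Dusp4, Dusp5 and Dusp6. The crisis library with the lowest stem sum (14459.9) and the highest erythroid sum (244932) had the lowest Dusp6. Its Dusp4 and Dusp5 were not the lowest of the crisis libraries. The part of the marker shift in the phosphatase changes was not tested.

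In bone marrow SMP 0 of the 10 genes were called by limma, and 0 were at an unadjusted p under 0.05, where 2.36% of all genes were called and 23.4% had an unadjusted p under 0.05. The groups did not overlap for 2 of the 10 (1 higher, 1 lower), nor for 30.1% of all genes. Dusp5 had 862, 723 and 340.3 in crisis against 982, 989 and 978 in young WT (-0.69 ± 0.30, 95% interval -1.38 to 0.00), lower in each crisis library. Spry1 had 337, 375 and 429 against 262, 317 and 327 (0.36 ± 0.18, 95% interval -0.04 to 0.77), slightly higher in each. The 95% intervals of Dusp6 (-0.63 to 0.19), Spry2 (-0.42 to 0.25) and Spred2 (-0.29 to 0.61) hold 0. Spred1 (-0.51 to 0.52) and Etv5 (-0.49 to 0.53) also had intervals around 0, as had Dusp4 (-0.72 to 1.13), Spry4 (-0.67 to 1.72) and Egr1 (-0.79 to 1.32).

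The crisis effect on Spry1 was larger in bone marrow MEP than in bone marrow SMP. There its crisis effect in MEP exceeded that in SMP by 2.89 ± 0.47 on the log2 scale (limma with the mouse as a random block, adjusted p = 0.0199; 1 of the 10 genes called, against 1.63% of all genes). In spleen the same difference was 1.89 ± 0.50 and did not pass (adjusted p = 0.0509; 0 of 10 against 4.54% of all genes, with 4 of the 10 at an unadjusted p under 0.05, against 25.1%). The bone marrow call is lost without the block and without MEP crisis replicate 2 or 3, MEP young WT replicate 1 or SMP young WT replicate 1 (2.46 to 3.28 over the 12 fits). Between spleen and bone marrow, no gene of the genome passed the test of the difference in crisis effect in MEP or in SMP (0 called by limma, with 796 and 4184 genes at an unadjusted p under 0.05, 5.7% and 27.2%, and 0 and 2 of the 10). For Dusp4 in SMP the difference was -1.57 ± 0.51 (adjusted p = 0.112) and for Dusp6 -1.04 ± 0.41 (adjusted p = 0.137).

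**Figure D3:**
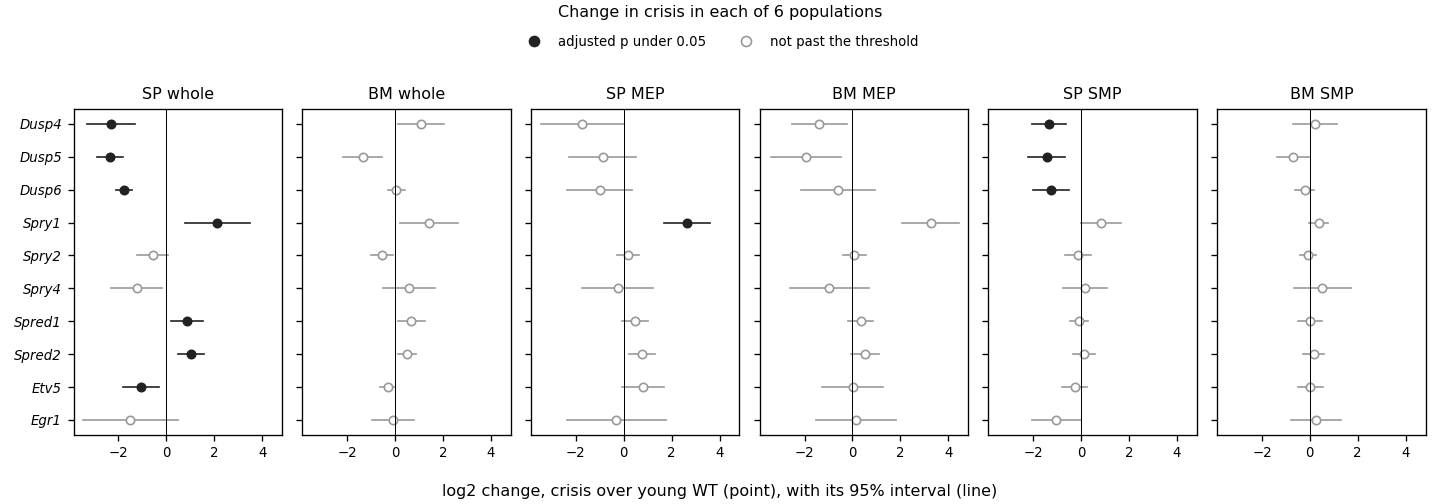
Log2 change of crisis over young WT for the 10 genes in each population (points) with 95% intervals (lines); filled points have an adjusted p under 0.05. Filled points are found in whole spleen for 7 genes, in spleen SMP for the 3 phosphatase genes and in spleen MEP for Spry1, which has 3.26 in bone marrow MEP without passing the test.

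One crisis mouse stood apart in many of these values, and was singled out after its values were seen. Crisis replicate 1, the youngest at 23 days, had the lowest Spry1, Spred1, Spred2 and Egr1 of the 3 crisis mice in all populations except Egr1 in spleen SMP. Without it, 5 of the 10 genes were called in whole bone marrow, 4 in spleen MEP, 4 in bone marrow MEP, 4 in spleen SMP and 4 in bone marrow SMP, and 7 in whole spleen, in fits with 2 crisis libraries. The share of all genes called was then 18.6% in whole bone marrow, 6.6% in spleen MEP, 11.8% in bone marrow MEP, 37% in spleen SMP, 19.3% in bone marrow SMP and 45.3% in whole spleen. Outside whole spleen these shares are above those with all 3 crisis mice, so the added calls among the 10 genes came with added calls across the genome. Spred1 and Spred2 were then called higher in whole bone marrow (0.96 ± 0.16 and 0.64 ± 0.13), spleen MEP (0.76 ± 0.17 and 1.03 ± 0.19), bone marrow MEP (0.63 ± 0.10 and 0.84 ± 0.14) and bone marrow SMP (0.30 ± 0.08 and 0.40 ± 0.10). Spry1 was then called higher in all populations but bone marrow SMP, and Dusp5 lower in both whole tissues, bone marrow MEP and spleen SMP. Dusp4 was called in opposite directions without it, at 1.46 ± 0.34 in whole bone marrow and -1.81 ± 0.33 in whole spleen. Age and mouse cannot be told apart here, and 2 mice are few.

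Other genes of the pathway were followed through lists written from textbook knowledge. Of 18 further ERK-responsive genes, 1 was called higher and 7 lower in whole spleen in crisis (median log2 change -0.79), a share near the 46.3% of all genes called there. Ier3, an early response gene, rose by 3.42 ± 0.22, while the immediate early factors Egr3 (-3.81 ± 0.36), Egr2 (-3.02 ± 0.67) and Nr4a1 (-2.46 ± 0.17) fell. In whole bone marrow 5 of the 18 were called higher and 1 lower (median 0.43), where 8.85% of all genes were called, among them Maff (3.01 ± 0.64) and Ier3 (1.87 ± 0.22) higher and Egr3 (-1.61 ± 0.33) lower. In spleen SMP Jun (1.67 ± 0.42) was called higher and Nr4a1 (-1.71 ± 0.45), Etv1 (-1.56 ± 0.45) and Fosl2 (-1.21 ± 0.33) lower, of 18 with a median of -0.90, where 23.6% of all genes were called. None was called in bone marrow SMP (16 tested), in spleen MEP (13 tested) or in bone marrow MEP (14 tested). A list of genes induced by tissue handling, which shares 6 genes with this one, had 5 of 14 called higher and 1 lower in whole bone marrow and 2 higher and 2 lower in whole spleen. The part of handling in these values was not tested.

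Among the other dual-specificity phosphatase genes, Dusp8, whose product acts mainly on JNK and p38, rose in 5 populations. Its log2 changes were 2.40 ± 0.19 in whole spleen, 1.89 ± 0.21 in whole bone marrow, 2.20 ± 0.25 in bone marrow MEP, 2.94 ± 0.65 in spleen SMP and 3.43 ± 0.55 in bone marrow SMP, with adjusted p values of 2.97e-05 to 0.0277 by limma. In whole spleen 2 of 8 tested rose and 4 fell, with Dusp2 (-3.05 ± 0.25), a phosphatase of lymphocytes, and Dusp10 (-2.19 ± 0.24) lowest. Of the negative regulators outside the 10 genes, 2 of 10 tested rose and 4 fell in whole spleen. These counts stand beside 22.3% of all genes called higher and 24% lower in that tissue. The adaptor gene Dok2 fell there (-2.57 ± 0.28), in spleen MEP (-2.80 ± 0.44) and in spleen SMP (-1.41 ± 0.35). Of the 16 genes of the cascade itself 6 rose in whole spleen, led by Braf (1.08 ± 0.12), and 4 fell, led by Map2k1, which encodes MEK1 (-0.90 ± 0.13), with a median of 0.35. In the other populations only Hras in spleen SMP (1.13 ± 0.31) was called.

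In partial remission none of the 10 genes was called in any of the 12 comparisons with crisis or with older WT by limma. Almost no gene was: 0 in 10 of the 12, 0.0226% in spleen MEP against crisis and 0.0129% in spleen SMP against older WT. These comparisons share their remission libraries with each other, and remission against crisis shares the crisis libraries with crisis against young WT. At an unadjusted p under 0.05 between remission and crisis there were 4 of the 10 genes in whole spleen (12.1% of all genes), 3 in whole bone marrow (12.5%), 2 in spleen MEP (5.75%), 1 in bone marrow MEP (7.89%), 3 in spleen SMP (14.5%) and 2 in bone marrow SMP (15.9%). Between remission and older WT there were 0 of the 10 in each, against 0.801% of all genes in whole spleen, 1.15% in whole bone marrow, 4.2% in spleen MEP, 1.39% in bone marrow MEP, 8.17% in spleen SMP and 1.28% in bone marrow SMP. The older WT arm is 1 library in whole spleen and in spleen SMP and 2 in the others, and the single libraries are assumed to vary like the other groups in the fit. Remission mice were also older than crisis mice, and state and age cannot be told apart.

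Spry1 had 88.6, 76.1 and 52.0 in whole spleen in remission against 138, 682 and 764 in crisis, and 82.5 in the older WT library. In bone marrow MEP it had 107, 159 and 67.9 in remission against 429.6, 1135 and 989 in crisis and 181 and 159 in older WT, and in spleen MEP 178 and 86.4 in remission against 305, 870.3 and 700.0 in crisis and 126 and 107 in older WT. All remission libraries lay below all crisis libraries in these 3 populations and in both SMP, and in whole bone marrow 1 remission library was just above crisis replicate 1. The log2 differences to crisis were -2.59 ± 0.70 in whole spleen, -2.90 ± 0.44 in bone marrow MEP and -2.20 ± 0.49 in spleen MEP, with adjusted p values of 0.401, 0.402 and 0.511 by limma.

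The phosphatase genes of whole spleen split the remission mice. Dusp5 had 1373, 299 and 436 in the 3 remission libraries against 206, 194 and 142 in crisis and 1046 in older WT. Dusp6 had 4127, 1105 and 1390.1 in remission against 822, 780.5 and 836 in crisis and 3977 in older WT. For both, remission replicate 1 (mouse 2726) was at or above WT levels and the other 2 were between crisis and WT. The B cell marker sums of these libraries had the same order, 186487, 29534 and 40210.0 in remission and 160076 in older WT, and the part of B cells was not tested. Dusp4 in whole spleen ran from 38.4 to 365 in remission with a median of 71.8, against 30.7 to 107 in crisis and 308 in older WT. Its 2 lower remission libraries thus lay within the crisis range. Without mouse 2726 its log2 difference to crisis was -0.21 ± 0.64. The unassigned whole spleen library of mouse 27265 had 421 of Dusp5 and 1487 of Dusp6, near the 2 lower remission libraries. The split rests on the library of mouse 2726 alone and would be absent with that of 27265 in its place, and whether these libraries were exchanged was not tested. Without mice 2726 and 27265, 3 of the 10 genes were called lower in whole spleen in remission than in older WT: Dusp4 (-2.43 ± 0.68, adjusted p = 0.0229), Dusp5 (-1.44 ± 0.36, adjusted p = 0.0129) and Dusp6 (-1.59 ± 0.23, adjusted p = 0.00103). In that fit 29% of all genes were called, against 0% with mouse 2726, and it rests on 1 older WT library, which is assumed to vary like the others. In spleen SMP Dusp4 had 482, 299.5 and 457 in remission against 175, 131 and 108 in crisis and 285 in the older WT library, higher in each remission than in each crisis library (1.52 ± 0.32, adjusted p = 0.343).

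Spred2 in whole spleen had 1112, 1177 and 1010.3 in remission against 1495, 2525 and 2385 in crisis and 881 in older WT, lower in each remission library than in crisis (-0.96 ± 0.27, adjusted p = 0.401). Spred1 had 1848, 1741 and 1462 in remission against 1676, 3837 and 3316 in crisis and 1876 in older WT, with overlap. Etv5 had 1485, 529.8 and 508 in remission against 337, 781 and 638 in crisis and 1217 in older WT, and Egr1 3259, 567 and 699 in remission against 258, 3679 and 772 in crisis and 2877 in older WT. Both followed the split of the phosphatase genes, with replicate 1 alone at WT levels.

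**Figure D4:**
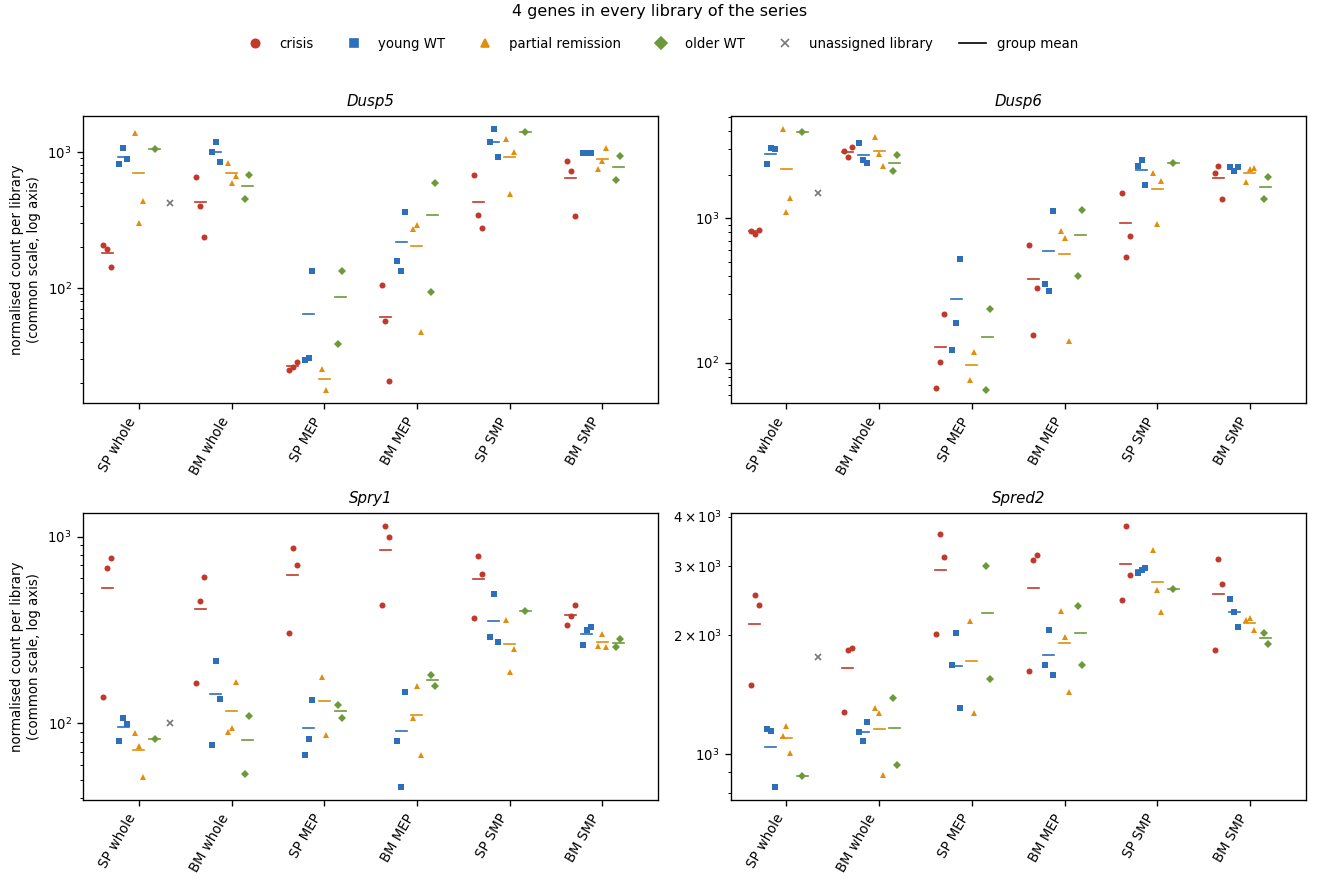
Normalised counts of Dusp5, Dusp6, Spry1 and Spred2 in every library (points; log axis; lines are group means) by population, with crisis, young WT, partial remission and older WT from left to right and the unassigned whole spleen library as a cross. In whole spleen the remission libraries of Dusp5 lie at 1373, 299 and 436, 1 at the WT level and 2 nearer to crisis, and Spry1 in remission lies at 88.6, 76.1 and 52.0, below all crisis libraries.

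Across the 63 assigned libraries, after the mean of each population was removed, the closest pairs among the 10 genes were these. Spred1 and Spred2 had a Pearson correlation of 0.83, Dusp5 and Dusp6 of 0.81, Spry1 and Spred2 of 0.70 and Dusp4 and Dusp6 of 0.67. The lowest were Dusp5 with Spred2 at -0.53 and Dusp5 with Spry1 at -0.47. Among 13223 genes the most alike to Dusp5 were Cobll1 (0.92), Bin1 (0.92) and Cand2 (0.92), to Dusp6 Sptan1 (0.90), Abr (0.90) and Bcl9l (0.89), and to Dusp4 Klk8 (0.83), Pvr (0.83) and Tbc1d16 (0.82). To Spry1 they were Pkd1l3 (0.87), Lama5 (0.82) and Pkp4 (0.82), to Spred1 Rlim (0.85), Spred2 (0.83) and Rab11fip2 (0.80), and to Spred2 Ofd1 (0.86), Peg12 (0.84) and 0610010F05Rik (0.84). Spry2 was nearest to Ttc5 (0.74), and Etv5 to Vps36 (0.75). Spry4 and Egr1 were each other's nearest gene (0.66). The libraries share mice and group differences, so these values describe the series and are not tests.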

How the data were processed

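RNA was sequenced from 64 libraries. Bowtie2 2.2.0, RSEM, DESeq2 and the GRCm38 build are named in the submitters' processing notes; the order of these steps is not given in the sources used here. The deposited table holds normalised counts, a signal scaled by the authors that is no longer in whole reads, for 26286 genes, of which 25607 matched a symbol of GENCODE M21. The authors also deposited a table of regularised log2 values (25287 genes), used as an alternative.

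The columns of a fit were divided by their median ratio to the geometric mean, genes averaging under 10 were dropped, and log2(value + 1) was tested with limma 3.58.1 (trend, robust) in R 4.3.3. Fold changes on that scale understate the change of low genes. P-values were adjusted by Benjamini-Hochberg over all genes tested, with a threshold of 0.05. The mouse entered as a random block (statmod 1.5.0) where a comparison spans tissues or cell types and mice are shared. Pairing comes from the mouse identifiers in the titles; replicate numbers follow no label and pair nothing. Depth in reads is unknown. The fit without a block was tested on data simulated for whole spleen in crisis and young WT, with independent noise and no mouse effect. Fits with the mouse as a random block were not tested in that way. The genes and lists were chosen with earlier results of these data known, and the rule for genes named outside the 10 took Rasa3, up to 4 called genes of a pathway list with the largest changes per comparison, and the 3 genes most correlated with each member. Alternatives covered scaling, pseudocount, filter, variance model, the groups in the fit, the log2 table, the block and leaving out each library.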

Additional observations from a re-analysis of the deposited data

Results flagged for a closer look

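The crisis effect differed between whole spleen and whole bone marrow for 3 of the genes by a test of the difference itself: Dusp4 at -3.42, Dusp6 at -1.84 and Spry4 at -1.83 on the log2 scale. In that test 26% of all genes were called in either direction. None of the 3 genes was called without rescaling. The Spry4 call is also lost in 8 of the 12 fits that each left out a single library. The crisis effect on Spry1 differed between MEP and SMP of bone marrow by 2.89, where 1.63% of all genes were called. That call is lost without the block and without rescaling. The whole spleen library of mouse 27265, which is in no group, had 2166 normalised counts of Spred1 and 1762 of Spred2, above all young and older WT whole spleen libraries. No group holds more than 3 libraries, so no group was examined for single libraries far from the rest.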

How the results depend on the processing

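Of 212 recomputed counts of genes called among the 10, not counting fits without 1 library, 186 stayed within 1.5 times and 26 moved. Of 695 recomputed changes of single genes, 635 kept direction and side of the threshold, 33 lost and 17 gained a call, and 10 reversed. Of the fits without 1 library, 154 of 186 counts stayed and 32 moved, and of 533 single changes 434 stayed, 52 lost and 19 gained a call, and 28 reversed. The cause was not tested.

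For crisis against young WT, whole bone marrow (0 called) gave 2 without rescaling and 1 each with pseudocount 5, no filter, the log2 table or all 4 groups in the fit. Whole spleen (7) gave 4 without the trend and robust settings and 4 with all 4 groups. Bone marrow MEP (0) gave 2 without rescaling, 1 without a filter and 1 with a covariate for libraries with a single scaling step. Spleen MEP (1) gave 4 without rescaling and 0 without the trend, with all 4 groups or with that covariate. Spleen SMP (3) gave 0 without the trend, and the covariate could not be fitted there. Bone marrow MEP in remission against crisis (0) gave 1 without rescaling. Whole spleen in remission against older WT (0) gave 3 without mice 2726 and 27265. The whole tissue difference (3) gave 0 without rescaling, and MEP minus SMP in spleen (0) gave 1 with pseudocount 5. Young WT spleen against bone marrow gave 2 in MEP (0) without rescaling and, in SMP (1), 2 without rescaling and 0 without a filter, without the trend and from the log2 table.

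Without the mouse as a replicate block, MEP minus SMP in bone marrow gave 0 genes in place of 1, and also 0 without rescaling; leaving out the block moved no other count among the 10 by over 1.5 times. A whole tissue comparison of young WT spleen and bone marrow left with 1 shared mouse was fitted without the block.

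Reversed values of genes that had not passed the test were, in whole bone marrow, Egr1 0.21 (all WT as 1 control) and Dusp6 -0.0044 (covariate), in bone marrow MEP Etv5 -0.041 (no rescaling) and -0.00044 (log2 table), in spleen MEP Spry4 0.73 and Egr1 1.19 (covariate), in bone marrow SMP Spry2 0.028 (no rescaling) and Spred1 -0.00622 (log2 table), and in spleen SMP Spry4 -0.34 and Spred2 -0.38 (no rescaling).

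Leaving out 1 library at a time, the genes called ranged from 0 to 5 in whole bone marrow, 4 to 7 in whole spleen, and 0 to 4 in each MEP and SMP for crisis against young WT. They ranged from 0 to 2 for remission against crisis in whole bone marrow and bone marrow SMP, 0 to 1 in spleen MEP, and 0 to 3 for remission against older WT in whole spleen. The differences gave 0 to 2 for SMP between tissues, 0 to 1 for MEP minus SMP in bone marrow and 0 to 4 in spleen, and young WT spleen against bone marrow 3 to 5 in whole tissue, 0 to 1 in MEP and 0 to 2 in SMP. Single genes that crossed 0 ranged in bone marrow MEP from -0.40 to 0.98 (Egr1) and -0.46 to 0.67 (Etv5), in spleen MEP from -1.07 to 0.69 (Egr1) and -0.75 to 0.22 (Spry4), and in whole bone marrow from -0.030 to 0.20 (Dusp6) and -0.54 to 0.22 (Egr1). In bone marrow SMP they ranged from -0.14 to 0.72 (Dusp4), -0.38 to 0.00100 (Dusp6), -0.077 to 0.79 (Egr1), -0.22 to 0.27 (Etv5), -0.16 to 0.30 (Spred1) and -0.0083 to 0.40 (Spred2), and in spleen SMP from -0.16 to 0.014 (Spred1), -0.063 to 0.28 (Spred2) and -0.11 to 0.33 (Spry4).

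Over the settings other than leaving out a library, genes called genome-wide ran from 22 to 1551 (1439 as reported) in whole bone marrow, 2445 to 8698 (7464) in whole spleen, 0 to 508 (28) in bone marrow MEP, 5 to 929 (159) in spleen MEP, 16 to 1148 (360) in bone marrow SMP and 1 to 6241 (3635) in spleen SMP. With 3 mice a group, and crisis mice shared by all populations, a call that fails here does not show that values were alike.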
